A study of Mus musculus with 2 samples.

Results

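The genes described here are 10 members of the Kruppel-like factor family, Klf1, Klf2, Klf3, Klf4, Klf6, Klf8, Klf9, Klf10, Klf11 and Klf13. They were picked by symbol through the GENCODE mouse annotation and are 10 of 43346 Ensembl genes in the files. The cells were primary erythroblasts, nucleated cells on the way to becoming red cells, of mice of the C57BL/6J strain, male and 5 to 6 weeks old, with no treatment or allele named in the labels. Total RNA depleted of ribosomal RNA (100 ng a library) was sequenced in 2 libraries of this 1 group, called replicates 1 and 2. The labels call them biological replicates under 1 donor record, so part of their spread may be technical, and give size ranges of 200 to 764 and 138 to 1000 without a unit. A single group allows no contrast of conditions. The levels, their order, the transcripts behind them and the difference between the libraries are described, and no p-value is given.

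Kruppel-like factors are transcription factors that bind GC-rich sites, among them the CACCC box of globin promoters, through zinc fingers at the end of the protein. KLF1 is the erythroid activator of the family and drives the adult beta globin gene. KLF3 and KLF8 act mainly as repressors through the corepressor CtBP, and KLF9, KLF10, KLF11 and KLF13 recruit the corepressor Sin3. KLF2, KLF4 and KLF6 are best known as activators or dual regulators outside the red cell line, in endothelium, lymphocytes, epithelia and myeloid cells.

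The DNA that encodes the fingers is shown because it is what defines the family and because similar genes could exchange reads. A search of the coding sequences in GENCODE M21 found 3 fingers in each of the 10 members, within a stretch of 243 bases. Printed below is the middle finger (69 bases, coding strand) of the 3 members of highest level by TPM together with Klf13, Klf9 and Klf8, on which the later results turn. Capitals mark the codons of the pair of cysteines and the pair of histidines that hold the zinc ion. On GRCm38 these lie at chr8:84904781-84904849 for Klf1 (plus strand, exon 3), chr5:64828994-64829062 for Klf3 (plus, exon 6), chr13:5866656-5866724 for Klf6 (plus, exon 3), chr7:63891712-63891780 for Klf13 (minus, exon 2), chr19:23164700-23164768 for Klf9 (plus, exon 2) and chrX:153392704-153392772 for Klf8 (plus, exon 8).
Klf1: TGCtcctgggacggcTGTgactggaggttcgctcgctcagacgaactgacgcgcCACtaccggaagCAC
Klf3: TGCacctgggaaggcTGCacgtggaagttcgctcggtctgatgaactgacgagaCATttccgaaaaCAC
Klf6: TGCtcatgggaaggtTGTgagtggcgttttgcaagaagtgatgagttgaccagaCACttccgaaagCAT
Klf13: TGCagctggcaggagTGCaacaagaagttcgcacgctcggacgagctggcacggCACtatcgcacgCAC
Klf9: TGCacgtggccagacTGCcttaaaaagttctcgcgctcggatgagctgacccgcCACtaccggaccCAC
Klf8: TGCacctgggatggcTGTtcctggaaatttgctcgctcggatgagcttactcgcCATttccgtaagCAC

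The search fixed the places of the 4 zinc-binding codons, and the bases between them varied. Over the 243 bases, the 45 pairs of members were 55.6% to 78.2% identical, with a median of 64.6%. Klf2 and Klf4 were the most alike pair and Klf1 and Klf9 the least. The longest run of bases shared exactly by the leading coding transcripts of any pair was 22 bases, between Klf3 and Klf8. The authors' posterior standard deviation of the gene count was 0 in both libraries for all 10 members, which leaves their gene totals without reads divided among genes. Klf3 overlaps Gm20033 on the opposite strand (2 and 10 counts), and whether the counting used strand is not stated.

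The promoters of Klf1 and Klf3 are shown because these members had the highest levels. They come from RefSeq (GRCm38.p6) and run up to the first base of the gene in GENCODE, at chr8:84901732-84901927 for Klf1 and chr5:64803271-64803387 for Klf3, both on the plus strand. Capitals mark matches, on either strand, to the motif CACCC and the looser form CCNCNCCC, both bound by KLF and Sp proteins, and to AGATAA, a form of the GATA site. Matches to another GATA form, TGATAA, are marked as well. A CACCC match can overlap a match to the looser form.
Klf1: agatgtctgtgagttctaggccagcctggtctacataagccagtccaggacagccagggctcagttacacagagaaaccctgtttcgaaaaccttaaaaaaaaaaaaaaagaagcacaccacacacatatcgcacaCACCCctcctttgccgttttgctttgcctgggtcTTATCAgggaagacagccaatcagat
Klf3: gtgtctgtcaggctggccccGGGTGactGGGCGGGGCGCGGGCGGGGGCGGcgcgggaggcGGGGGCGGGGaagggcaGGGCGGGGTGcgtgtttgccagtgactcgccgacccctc

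The promoter table held 10 windows of 9 members and none for Klf10. The Klf3 window is that of its upstream start, and the downstream start described below had no window. Over the full window of 250 bases before to 50 after the RefSeq start, Klf1 had 2 matches to CACCC, 0 to CCNCNCCC and 1 to TGATAA. Klf3 had 5 matches to CACCC, 10 to CCNCNCCC and 0 to either GATA form. Klf1 was the only 1 of the 10 member windows with a GATA match, against 11.2% (AGATAA) and 9.05% (TGATAA) of 32841 windows of all genes. CACCC was found in 7 of the 10 member windows and 57.5% of all windows, and CCNCNCCC in 8 of 10 and 49.5%. The Klf1 window held 3 CpG pairs and was 51.3% G and C. The windows of Klf2, Klf3, Klf4, Klf6, Klf9, Klf11 and Klf13 held 23 to 42 CpG pairs, and those of the 2 starts of Klf8 held 5 and 8. A match describes the letters of the window and no binding was measured.

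Replicates 1 and 2 held 37312624 and 22464724 expected counts on Ensembl genes, so that a count of 0 allows up to 0.0804 and 0.134 CPM. TPM, a length-corrected share of all features, was divided in each library by the sum over 21461 nuclear protein-coding genes and multiplied by 1000000. Those genes held only 11.3% and 6.90% of deposited TPM, and the rescaled unit is called coding-scaled TPM. Of 12 markers of red cell precursors all 12 reached 1 coding-scaled TPM in both libraries, with summed levels of 326101 and 269574. Markers of other cells were also present: 14 of 14 neutrophil genes (summed levels of 20996 and 20450), 13 of 13 monocyte and macrophage genes (3064 and 2393) and 5 of 8 megakaryocyte genes (125 and 148). Of 12 lymphocyte genes 2 reached the limit (summed levels of 18.3 and 8.41, with Pax5, Cd3d and Cd8a at 0 counts in both), and of 6 endothelial genes 1 did (5.33 and 5.22, with Cdh5, Kdr and Tek at 0). The part of these other cells in the levels of the members was not tested, and in bulk RNA fewer cells of a type and less RNA per cell cannot be told apart.

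Klf3 and Klf1 stood far above the rest of the family. Together they held 70.7% of the summed level of the 10 members in replicate 1 and 64.7% in replicate 2. By point values 9 members reached 1 coding-scaled TPM in both libraries. Klf9 was the nearest to this limit, at 1.02 in replicate 2, with an authors' credibility interval of 0.704 to 1.53 that includes 1. That value ranked at percentile 21.5 of the 12895 protein-coding genes with any TPM, so most of them reached 1 in that library. The share that reached it in both libraries was not counted. The counts of marker and list genes that reached this limit therefore also have no share over all genes beside them. The summed level was 314 ± 32.7 coding-scaled TPM (SD, n = 2). The highest member exceeded the lowest 1386-fold in replicate 1, where Klf8 had only 6 counts, and 172-fold in replicate 2.

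Klf1 (ENSMUSG00000054191, chromosome 8, 84901928 to 84905291) had 2516 and 953 counts. Its level was 123 coding-scaled TPM in replicate 1 and 88.9 in replicate 2 (106 ± 24.2, SD, n = 2). Replicate 1 was the higher library. The authors' credibility intervals of 118 to 127 and 82.7 to 93.9 did not overlap, but each covers the estimate within 1 library and not the spread between libraries. Its level ranked at percentile 93.4 and 90.9 of the 12895 protein-coding genes with any TPM. The genes nearest to it in level in both libraries were Mknk1 (121 and 89.2), Brd2 (120 and 85.3) and Pttg1 (120 and 93.8), chosen by the larger of the absolute log2 differences in 2 libraries.

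Klf3 (ENSMUSG00000029178, chromosome 5, 64803388 to 64832901), the CtBP-recruiting repressor, had 3205 and 1495 counts. Its level was 116 coding-scaled TPM in replicate 1 and 99.6 in replicate 2 (108 ± 11.3, SD, n = 2). The ratio of Klf3 to Klf1 was 0.939 in replicate 1 and 1.12 in replicate 2, so the order of the pair did not hold across the libraries. By the same measure as for Klf1, the genes nearest to Klf3 were Aldoa (116 and 101), Gsr (119 and 98.8) and Rab8b (112 and 104). Klf8, the other CtBP-recruiting member, was the lowest of the 10 in both libraries. It had 6 and 18 counts, or 0.0889 and 0.580 coding-scaled TPM, the only member under 1 in either library, although the credibility intervals (0.0558 to 3.05 and 0.414 to 4.43) reach above 1.

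**Figure D1:**
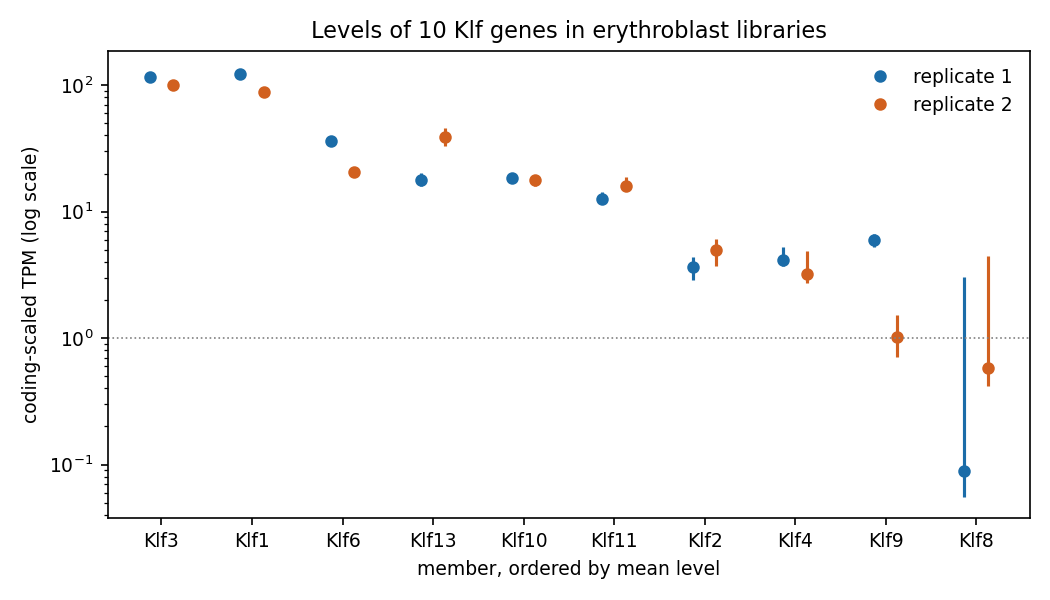
Level of each member in coding-scaled TPM on a log axis, with replicate 1 in blue, replicate 2 in orange, the authors' credibility interval as a vertical line and 1 coding-scaled TPM as a dotted line. Klf3 and Klf1 lie near 100 in both libraries, and Klf9 and Klf13 show the widest gaps between the libraries among the members above 1.

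Klf6 (chromosome 13, 5861482 to 5870394), a widely expressed factor that responds to growth signals and injury, came next. It had 2213 and 650 counts and stood at 36.2 and 20.6 coding-scaled TPM, higher in replicate 1 (28.4 ± 11.0, SD, n = 2). Each of these values was below the lower Klf1 value of 88.9. Klf1 exceeded Klf6 by 3.41 times in replicate 1 and 4.32 times in replicate 2.

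Among the Sin3-recruiting members, Klf10 (chromosome 15, 38291463 to 38300706) was the steadiest. Klf10, an early gene of TGF-beta signalling, had 807 and 398 counts and stood at 18.6 and 17.7 coding-scaled TPM (18.1 ± 0.620, SD, n = 2). Its close relative Klf11 (chromosome 12, 24651274 to 24662789) had 721 and 473 counts and stood at 12.5 and 15.9, below Klf10 in both libraries. Klf13 (chromosome 7, 63886351 to 63938915, minus strand), known for activating a chemokine gene in T cells, had 743 and 686 counts. Its level was 17.7 coding-scaled TPM in replicate 1 and 38.9 in replicate 2, so it ranked the fifth and the third of the family. From its full-length transcript alone, described below, it stood at 6.58 and 11.3, under Klf11 in both libraries. The fourth of these members, Klf9, is described with the differences between the libraries below.

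Klf2 and Klf4, regulators of endothelial quiescence and of monocyte and epithelial differentiation, were low. Klf2 (chromosome 8, 72319033 to 72321656) had 91 and 64 counts, or 3.64 and 4.93 coding-scaled TPM. Klf4 (chromosome 4, 55527143 to 55532466, minus strand) had 181 and 72 counts, or 4.18 and 3.19. Their ranges overlapped, with Klf4 above Klf2 in replicate 1 and below it in replicate 2. Both lay between percentiles 36.1 and 43.4 of the 12895 protein-coding genes with any TPM.

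By mean level the order was Klf3, Klf1, Klf6, Klf13, Klf10, Klf11, Klf2, Klf4, Klf9 and Klf8. Of the 9 neighbouring pairs in this order, 4 stood in the same order in both libraries, and the ranges of their library values did not overlap. These were Klf1 above Klf6, Klf10 above Klf11, Klf11 above Klf2, and Klf9 above Klf8. The authors' credibility intervals in replicate 2 did overlap for Klf10 and Klf11 (15.9 to 19.3 and 15.0 to 18.9). They also overlapped there for Klf9 and Klf8 (0.704 to 1.53 and 0.414 to 4.43). The other 5 pairs had overlapping ranges and changed places between the libraries. By library values the members thus filled 4 ranges that did not overlap: Klf3 and Klf1 between 88.9 and 123, Klf6, Klf13, Klf10 and Klf11 between 12.5 and 38.9, Klf2, Klf4 and Klf9 between 1.02 and 5.95, and Klf8 below. Given its credibility intervals, the place of Klf8 below the third range is not settled. With Klf13 from its full-length transcript alone, Klf13 falls between Klf11 and the range of Klf2, Klf4 and Klf9.

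Of the 10 members, 8 averaged 100 counts or more and were compared between the libraries with TMM-scaled counts. Klf9 alone was at least 2-fold apart, against 8.54% of 7658 nuclear protein-coding genes and 10.5% of 8204 genes of any class. It was higher in replicate 1, as were 5.62% of the coding genes by 2-fold and 0.588% by 4-fold. Log2 ratios of replicate 2 over replicate 1 were below 0 for 6 of the 8 members, with a median of -0.34, against 53.9% and a median of -0.04 for the protein-coding genes. The intervals given with the ratios are exact Clopper-Pearson 95% intervals of counting error. They cover neither PCR duplicates nor the spread between cultures or animals, since each side is 1 library.

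Klf9 (ENSMUSG00000033863, chromosome 19, 23141226 to 23168134) is a Sin3-recruiting factor whose gene is a known direct target of the glucocorticoid receptor. It had 280 counts in replicate 1 and 26 in replicate 2, or 5.95 and 1.02 coding-scaled TPM. Replicate 2 was thus the low library, and the ratio was 5.86-fold on TMM-scaled counts, a log2 ratio of -2.55 (-3.19 to -1.97). Of 2716 protein-coding genes with a mean count of 100 to 300, 12.7% were at least 2-fold and 1.66% at least 4-fold higher in replicate 1. A ratio as low as that of Klf9 was found in 18 of them (0.663%, Klf9 included). Klf9 passed the count limit only through replicate 1, and the limit and the ratio use the same counts. These shares therefore describe the list and do not measure how rare the Klf9 ratio is. The value has no replicate check. Summed levels of the erythroid, neutrophil, monocyte and macrophage, lymphocyte and endothelial markers, given above, were all lower in replicate 2, and that of the megakaryocyte markers was higher. Median log2 ratios were -0.16 for the erythroid, -0.26 for the neutrophil and -0.29 for the monocyte and macrophage markers. Of 13 monocyte and macrophage genes 1 was 2-fold apart, against 8.54% of the protein-coding genes. It was the lysosomal gene Cd68, with a log2 ratio of -1.27. The part of those cells in the Klf9 difference was not tested.

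A list of the glucocorticoid receptor gene and 5 genes it is known to induce was set beside Klf9. The receptor gene Nr3c1 stood at 26.1 and 25.8 coding-scaled TPM, close in both libraries by this measure. By TMM-scaled counts its log2 ratio was -0.22 (-0.32 to -0.11). The 3 list genes that averaged 100 counts or more were Nr3c1 itself, Fkbp5 and Tsc22d3. All 3 had a log2 ratio below 0, with a median of -0.28, and 1 was at least 2-fold apart, against 53.9% and 8.54% of the protein-coding genes. The gene 2-fold apart was Fkbp5, a chaperone of the receptor, at 13.3 and 5.51 coding-scaled TPM (log2 ratio -1.04, -1.32 to -0.78). Per1 and Zbtb16, under the count limit, had log2 ratios above 0, at 0.31 (-0.34 to 0.93) and 0.62 (0.06 to 1.18). Sgk1, also under the limit, had a log2 ratio below 0, at -0.27 (-0.77 to 0.22). Tsc22d3 stood at 15.4 and 12.8, and Zbtb16, the lowest, at 0.800 and 1.30.

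Klf6 came nearest to the 2-fold limit among the remaining members, with a log2 ratio of -0.89 (-1.02 to -0.76), 1.85-fold higher in replicate 1. Scaled by library size alone, its ratio was -1.03, past the limit. Klf1 had a ratio of -0.52 (-0.63 to -0.41), Klf4 of -0.45 (-0.87 to -0.05) and Klf3 of -0.22 (-0.31 to -0.13), all toward replicate 1. Klf10 had a ratio of -0.14, with an interval that included 0 (-0.32 to 0.03). Toward replicate 2 were Klf13 at 0.76 (0.61 to 0.91) and Klf11 at 0.27 (0.10 to 0.44). The ratio of Klf13 was 1.14, past the limit, when coding-scaled TPM was used in place of counts. The members under the count limit were Klf2, at 0.37 (-0.11 to 0.85), and Klf8, at 2.46 (1.07 to 4.08) from 6 and 18 counts.

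**Figure D2:**
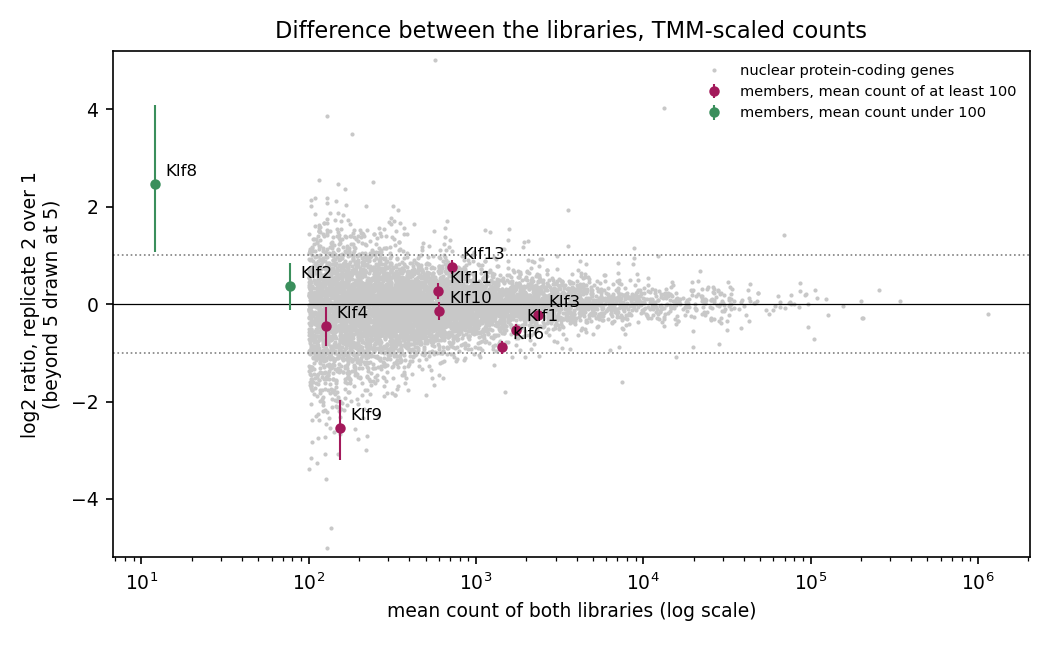
Log2 ratio of replicate 2 over replicate 1 against the mean count of both libraries (log axis), with grey points for 7658 nuclear protein-coding genes and members in colour with 95% counting intervals. Dotted lines mark 2-fold, and Klf9 at -2.55 lies below nearly all genes of similar count, while Klf8 rests on 6 and 18 counts.

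Of the 10 members, 5 had a single transcript in the files: Klf1, Klf2, Klf6, Klf9 and Klf10. For Klf4 and Klf11 the full-length transcript held 100% of deposited TPM in both libraries. The same held for a long transcript of Klf8, but by the posterior mean a short one (247 bases) led with 89.0% and 68.6%, so the start used by Klf8 cannot be read from 6 and 18 counts. Klf3 and Klf13 were the members with counts spread over several transcripts.

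Klf3 had counts assigned to both of the starts in the files. The upstream transcript (ENSMUST00000165536) begins at position 64803388 of chromosome 5, next to the promoter printed above. The downstream transcript (ENSMUST00000166409) begins at 64812339, 8951 bases further on, in a first exon of its own of 165 bases that lies in the first intron of the upstream form. Klf3 is known to have an erythroid promoter that KLF1 activates, and whether it is this start was not tested. The upstream form held 59.9% of the gene by TPM in replicate 1 and 69.8% in replicate 2 (64.9% ± 7.01, SD, n = 2), and the downstream form the remaining 40.1% and 30.1%. The upstream form led in both libraries, by ratios of 1.496 and 2.317.

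In level, the upstream form stood at 69.3 and 69.6 coding-scaled TPM, while the downstream form stood at 46.3 and 30.0. By expected count the upstream form had 2239 and 1167 and the downstream form 966 and 328, a log2 ratio of -0.06 for the first and -0.68 for the second. The gap between the libraries at Klf3 thus lay mostly in the downstream form. The authors' posterior standard deviation of these counts was 56.2 and 24.9, since most exons are common to both forms and their reads were divided by an estimate. In GENCODE M21 the forms also differ at the last exon, and the upstream form is 5221 bases long there against 2314 in the files. The share therefore does not rest on the first exons alone.

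**Figure D3:**
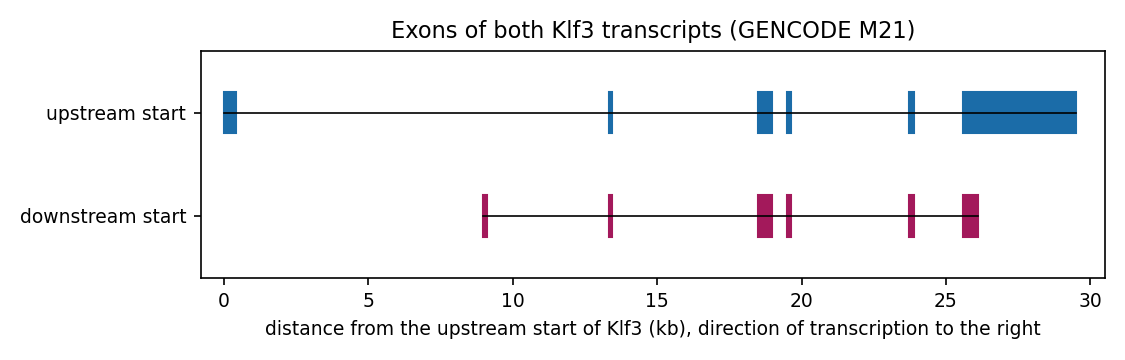
Exons (boxes) of the upstream and downstream forms of Klf3 in GENCODE M21 by distance in kb from the upstream start. The first exon of the downstream form begins 8951 bases from that start, and the last exon of the upstream form as drawn is longer than in the files.

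The level of Klf13 depended on a short intronic transcript. This retained-intron transcript of 934 bases (ENSMUST00000183907, chromosome 7, 63935399 to 63936332) lies within the first intron of the full-length form and had 113 and 112 counts. The full-length coding form (ENSMUST00000063694, 6400 bases) had 623 and 550 counts. By count the full-length form led with 83.9% and 80.2%. By TPM, which divides by length, the retained intron led with 56.6% and 47.5% against 37.4% and 29.2%. Per kilobase of effective length, the retained intron had 152 and 143 counts and the full-length form 100.4 and 88.1. A short coding transcript of 487 bases (ENSMUST00000185175), whose first exon lies inside the retained-intron transcript, had 0 counts in replicate 1 and 23.6 in replicate 2, where it held 23.3% by TPM.

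From the full-length form alone, a choice made after these values were seen, the level of Klf13 was 6.58 and 11.3 coding-scaled TPM (8.94 ± 3.35, SD, n = 2) in place of 28.3 ± 15.0. Both values lie below the lower Klf11 value of 12.5, and the log2 ratio between the libraries was then 0.70. Libraries of total RNA also hold unspliced RNA. No retained-intron transcript of another member was listed in the files, so the same comparison could not be made for them.

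**Figure D4:**
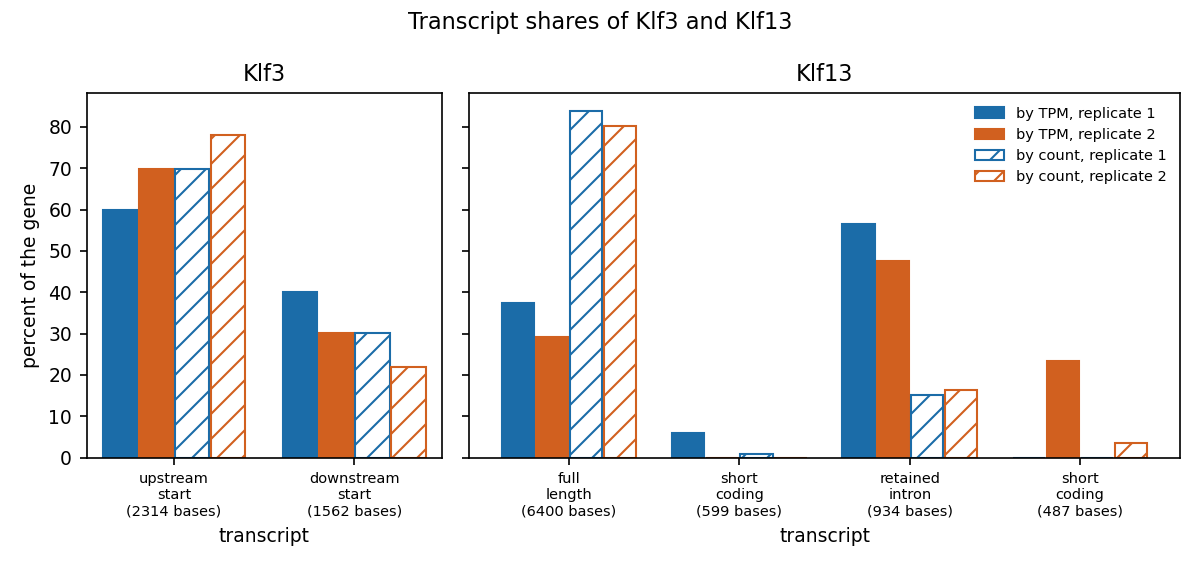
Percent of Klf3 (left) and Klf13 (right) held by each transcript, by TPM in filled bars and by expected count in hatched bars, in replicate 1 (blue) and replicate 2 (orange). The upstream form leads Klf3 on both measures, whereas Klf13 is led by the retained intron by TPM and by the full-length transcript by count.

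The members were next set beside the other genes of the KLF and Sp family, which share the finger fold and similar binding sites. Of these 16 genes 7 reached 1 coding-scaled TPM in both libraries, against 9 of the 10 members, and their summed level was 190.4 ± 20.7 (SD, n = 2). Sp3, at 147 and 120 coding-scaled TPM, stood above Klf1 and Klf3 in both libraries. Sp1 (24.35 and 22.05) and Sp4 (18.8 and 17.0) lay in the range of Klf6 to Klf11. Sp2 (4.62 and 6.38), Klf7 (4.27 and 2.61), Klf16 (2.49 and 4.35) and Klf5 (1.599 and 3.191) were low. Klf15 had 13 and 6 counts, Klf17 19 and 0 and Sp9 4 and 0. Klf12, Klf14, Sp5, Sp6, Sp7 and Sp8 had 0 counts in both libraries. Of the 5 genes that averaged 100 counts or more none was 2-fold apart.

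Cofactors that KLF proteins are known to bind were present with their partners. Of 13 cofactor genes 12 reached 1 coding-scaled TPM in both libraries, with a list median of 28.7 ± 2.27 (SD, n = 2), and none of the 12 that averaged 100 counts or more was 2-fold apart. Ctbp1, the corepressor of KLF3 and KLF8, stood at 38.6 and 63.4, and Sin3a, the corepressor of KLF9, KLF10, KLF11 and KLF13, at 25.0 and 37.0. The acetyltransferase genes Ep300 (176 and 178) and Crebbp (64.1 and 70.3), whose products acetylate KLF1, were the highest of the list. Fhl3, a KLF3 partner, was the lowest at 0.889 and 1.30.

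Of 26 genes known to depend on KLF1, 24 reached 1 coding-scaled TPM in both libraries, with a list median of 719 ± 88.0 (SD, n = 2). None of the 24 that averaged 100 counts or more was 2-fold apart, and 10 had a log2 ratio below 0, while that of Klf1 was -0.52. Highest were the beta globin genes Hbb-bt (39663 and 48425) and Hbb-bs (39090 and 28462) and the anion exchanger gene Slc4a1 (6811 and 7957). The genes that did not reach the limit were the cell cycle inhibitor gene Cdkn1a, with 2 and 5 counts, and the blood group gene Bcam, with 0 counts in both libraries. The list was composed from known roles with earlier results of these data at hand, so its high median is not independent evidence of KLF1 activity.

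**Figure D5:**
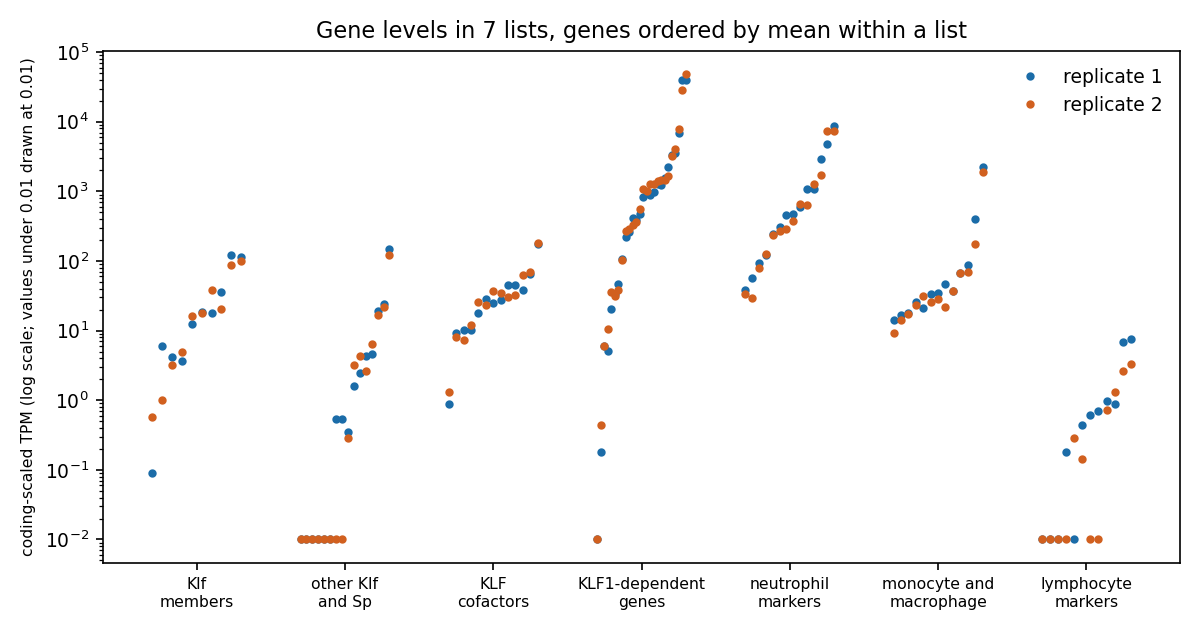
Coding-scaled TPM (log axis) of each gene in 7 lists, replicate 1 in blue and replicate 2 in orange, genes ordered by mean within a list and values under 0.01 drawn at 0.01. The KLF1-dependent genes reach far above the Klf members, and the Klf members top out near 100, close to Sp3 and below Ep300.

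Several members are rapidly induced by stimulation in other cells, so immediate early genes of other families were set beside them. Of 16 such genes 13 reached 1 coding-scaled TPM in both libraries, with a list median of 9.05 ± 0.426 (SD, n = 2), against 16.0 ± 1.22 for the 10 members. Btg2 (433 and 372), Jund (30.3 and 36.7) and Fos (33.8 and 26.2) were highest, Egr2 (20 and 0 counts) was the lowest with a count, and Egr3 had 0 counts in both. Of 9 that averaged 100 counts or more, 1 was 2-fold apart, against 8.54% of the protein-coding genes. It was Zfp36, a factor of mRNA decay, at 21.1 and 8.99 (log2 ratio -1.28, -1.59 to -0.99). Of 11 TGF-beta and SMAD genes, set beside Klf10 and Klf11, 10 reached the limit, with a median of 5.07 ± 0.614. Smad2 (36.1 and 24.1), Tgfb1 (10.2 and 11.5) and Tgfbr1 (8.17 and 8.41) were highest. For Smad2 and Tgfb1 the ratios of TMM-scaled counts, at 0.46 and -0.18, went the opposite way to these levels. By counts, none of 8 that averaged 100 counts or more was 2-fold apart.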

How the data were processed

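Total RNA depleted of ribosomal RNA was measured in 2 erythroblast libraries of 1 group. The members and lists were chosen with earlier results of these data known. The authors used mm10, per the labels, and GENCODE M4, per the deposited text records. How reads were aligned, quantified and assigned by strand is not stated in the sources used here. The authors' deposited values are expected counts with a posterior standard deviation, TPM, FPKM (not used) and, for each transcript, its percent of the TPM of its gene. The bounds of the authors' credibility interval of TPM, a signal that is never negative, are deposited beside it.

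Of 43346 Ensembl genes 42462 (98.0%) matched GENCODE M21 (GRCm38) by identifier without version. All 10 members and all list genes matched. M21 gave symbols, coordinates and transcript names, and 7 transcripts of members differ in length from the files. Other features, with 8 and 28 counts, were left out. Deposited TPM was rescaled to coding-scaled TPM. Expected counts were rounded and scaled with TMM (edgeR 4.0.16, R 4.3.3). Ratios were called at 2-fold only at a mean count of 100 or more, and some named genes below it are given a ratio without a call. The intervals are Clopper-Pearson 95% intervals, and the ratios were checked on simulated counts that held counting error alone. The count of 0 limit is 3 counts a library. The biological coefficient of variation from edgeR without a contrast was 0.317 over 8204 genes. Named were all members, all other Klf and Sp genes, transcripts holding at least 5%, and from each list the 3 highest genes, the lowest with a count, genes at 0 and genes 2-fold apart where 5 or fewer. The 3 coding genes nearest in level to Klf1 and to Klf3 were also named, and of marker lists only genes at 0 or 2-fold apart. Sin3a, Per1 and Sgk1 were named outside this rule, after their values were seen. The value of 1 list gene is not reported here. Alternatives were DESeq2 1.42.0 size factors, library size alone, posterior mean TPM, other limits, scaling without globins and leaving out a replicate. Tables and plots were made in Python 3.11.15 (numpy 2.4.6, scipy 1.17.1, pandas 2.3.3, matplotlib 3.10.9).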

Additional observations from a re-analysis of the deposited data

How the results depend on the processing

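No paired analysis was possible because the labels give 1 group. The number of members that reached 1 coding-scaled TPM in both libraries was 9, and it was 6 at a deposited TPM of 1, 6 at 5 coding-scaled TPM, 10 by the posterior mean TPM and 9 without either replicate. Their summed level of 314 rose to 493 when the adult globins were left out of the scaling, which shrinks the total by construction. It ranged from 291 to 338 without 1 replicate and was 295 with Klf13 from its full-length transcript alone. The number of members at least 2-fold apart was 1 with TMM and with DESeq2 size factors. It was 2 by library size alone (with Klf6) and 2 by the ratio of coding-scaled TPM (with Klf13). It was also 2 at a mean count of at least 10 and 2 with no filter on counts (with Klf8 in both). Of 8204 genes of any class that passed the main count limit, 862 were 2-fold apart with TMM and 859 with DESeq2 size factors. The number was 986 by library size alone and 1147 by the ratio of coding-scaled TPM, so calls rose over all genes too. No such number over all genes is given for the looser count limits. With library size alone, the median log2 ratio over all genes was -0.18 in place of -0.03, and 30.4% of 2-fold genes were higher in replicate 2 in place of 44.8%. The leading transcript differed for 1 member by the posterior mean (Klf8) and for 1 by expected count (Klf13), and for none without either replicate. No log2 ratio of a member changed sign under these scalings. A log2 ratio could not be given without 1 replicate, since each side is 1 library. The low counts of Klf8 and of Klf9 in replicate 2 limit what can be said of both.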
